A study of Mus musculus with 9 samples.

Results

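The genes described here are 10 genes for matrix-cleaving enzymes and their inhibitors: Adamts1, Adamts4, Adamts5 and Adamts9, which encode secreted ADAMTS proteases, Mmp2, Mmp14 and Mmp23, which encode matrix metalloproteinases, and Timp1, Timp2 and Timp3, which encode tissue inhibitors of metalloproteinases. They were taken by symbol from a table of read counts for 35275 genes, all 10 were found, and all 10 had enough counts to enter the test, as did 15825 genes in all. RNA had been taken from the front of the eye of mice on postnatal day 0, with the lens removed, so that the tissue held cornea, iris, ciliary body and drainage structures. There were 6 libraries from mutant mice, heterozygous for the G1344D missense allele of Col4a1 (Col4a1+/G1344D), and 3 from wildtype mice (Col4a1+/+). Each library pooled 4 eyes of 2 mice, so p-values measure the spread between pools, and the labels used here name neither sex nor strain. The allele changes an amino acid and leaves the gene in place, so the RNA level of Col4a1 does not check the labels.

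Matrix metalloproteinases and ADAMTS proteases are zinc enzymes that cut collagens, proteoglycans and other proteins outside the cell. TIMPs are small secreted proteins that block their active site, and Timp3 differs from the others in binding to the matrix and in inhibiting several ADAMTS enzymes as well. In the eye these enzymes take part in remodelling the corneal stroma and the drainage tissue, and Col4a1 encodes a chain of type IV collagen, a basement membrane protein that the Mmp2 product can cut.

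The coding sequence at the catalytic zinc site is shown for the proteases of both families, because this site is what Adamts1 and Adamts9, which rose in the mutant, have in common with Mmp14, which did not pass the test, and Mmp23, which fell. Each line is a stretch of 57 bases of the coding strand, 5′ to 3′, from GENCODE transcripts of GRCm38, and the capitals mark the codons of the 3 zinc-binding histidines and of the catalytic glutamate.
Adamts1: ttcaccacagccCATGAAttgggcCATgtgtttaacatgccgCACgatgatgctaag
Adamts9: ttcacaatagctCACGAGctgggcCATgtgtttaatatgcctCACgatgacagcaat
Mmp14: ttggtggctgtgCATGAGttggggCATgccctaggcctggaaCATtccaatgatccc
Mmp23: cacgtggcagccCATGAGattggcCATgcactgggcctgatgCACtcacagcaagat
Over the 33 bases of the site, Adamts1 and Adamts9 had 28 bases in common and Mmp14 and Mmp23 had 24, while pairs of an ADAMTS and an MMP gene had between 18 and 21. In Mmp14 the stretch lies in exon 5 (chr14:54437615-54437671, plus strand) and in Mmp23 also in exon 5 (chr4:155651516-155651572, minus strand). In both ADAMTS genes it crosses an exon boundary, between exons 3 and 4 of Adamts1 (chr16:85799179-85799557, minus strand) and between exons 8 and 9 of Adamts9 (chr6:92905273-92908505, minus strand), and these spans include the intron.

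The libraries held between 25995340 and 35306935 counts. They fell into sets by the share of counts on Gm42418, a gene that overlaps a ribosomal RNA repeat: 5 mutant libraries and wildtype 1 had between 4.11% and 6.91%, and mutant 2, wildtype 2 and wildtype 3 had between 0.0663% and 0.0708%. The labels give no batch for this split. Marker lists showed corneal epithelium, drainage and iris mesenchyme, and pigmented cells in every library. Of 8 lens markers, Crybb2 and Lim2 had no count in any library, whereas Cryab, which other tissues also express, averaged 186 CPM in the mutant and 206 CPM in wildtype, and Bfsp2 averaged 32.5 CPM and 42.5 CPM. In bulk tissue, fewer cells of a type and less RNA per cell cannot be told apart.

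Of the 10 genes, 5 were higher in the mutant (Adamts1, Adamts4, Adamts5, Adamts9 and Timp3), 1 was lower (Mmp23), and Mmp2, Mmp14, Timp1 and Timp2 did not pass the test (edgeR quasi-likelihood test, adjusted p under 0.05 over all 15825 genes). Across all tested genes, 9.7% were higher and 9.47% lower by the same rule. Without wildtype 1, 3 of the 10 genes were higher (Adamts1, Adamts4 and Timp3) and Mmp23 was lower, against 1.88% higher and 1.45% lower over the genes tested in that fit. The median log2 fold change of the 10 genes was 0.25, against -0.0019 for all tested genes. In 4 of the 10 genes no mutant library reached down to a wildtype one, which was so for 10.8% of tested genes, and in 1 the mutant libraries lay wholly below, which was so for 11.2%. The genes had been chosen with earlier results of these data known, so these shares describe them and are not a test of the group.

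**Figure D1:**
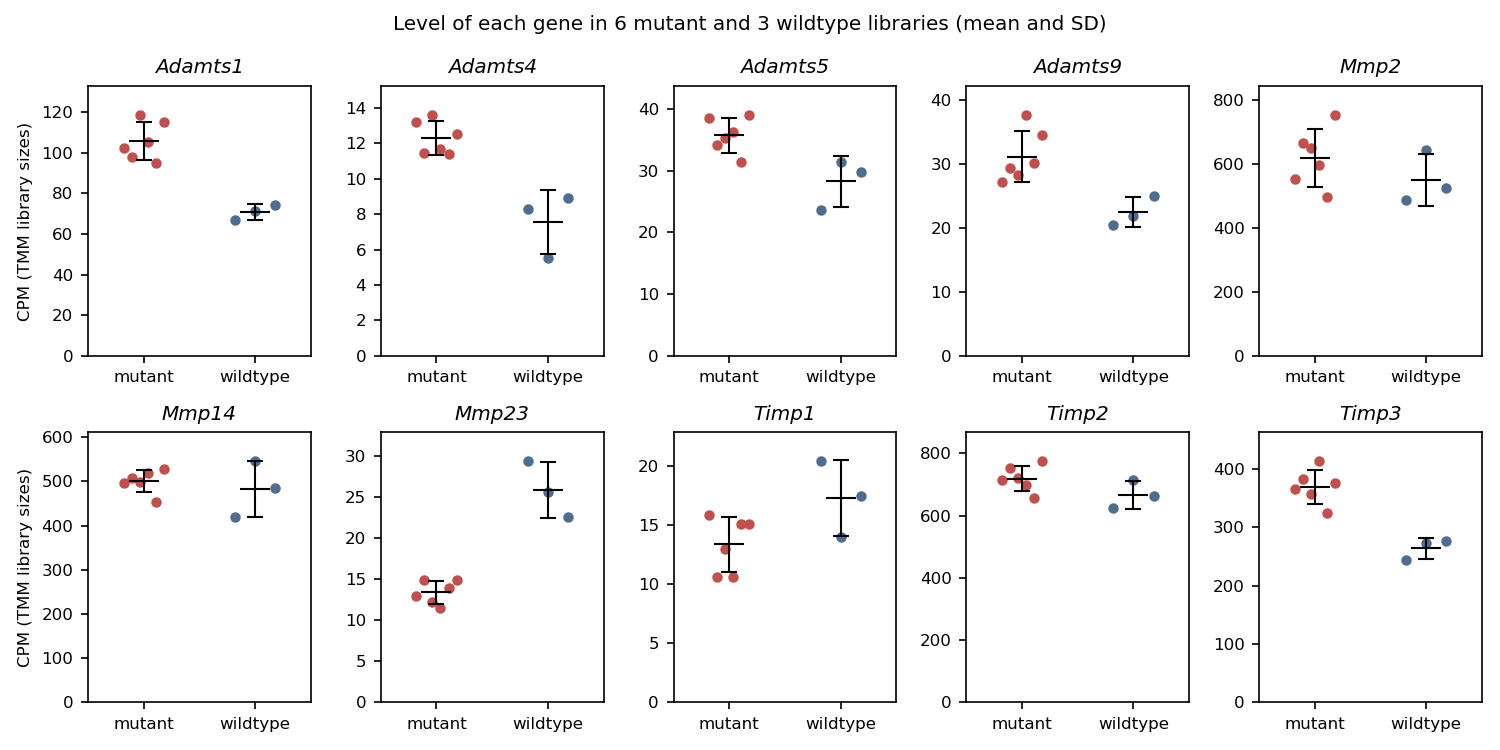
Level of each of the 10 genes in CPM, counts scaled to library size (vertical axes starting at 0), with 1 point per library, 6 mutant on the left and 3 wildtype on the right of each panel, and the mean and SD as bars. The groups are apart for Adamts1, Adamts4, Adamts9, Mmp23 and Timp3 and overlap for the other 5 genes.

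All 4 ADAMTS genes rose. Their products, known as aggrecanases or versicanases, cut the large hyaluronan-binding proteoglycans aggrecan and versican. Levels are given in CPM, which are counts scaled to an equal library size. Adamts1 (ENSMUSG00000022893, chromosome 16, 85793827 to 85803113 of GRCm38, minus strand) had a lowest, median and highest level of 94.7, 104 and 119 CPM in the mutant, against 66.7, 71.3 and 74.4 CPM in wildtype 1, 2 and 3. Every mutant library lay above every wildtype library. The rise was 1.49-fold (log2 0.58, SE 0.088, edgeR adjusted p = 0.00113).

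Adamts4 (ENSMUSG00000006403, chromosome 1, 171250421 to 171260637, plus strand), which encodes the enzyme first purified as an aggrecanase, had far fewer counts. Its lowest, median and highest levels were 11.4, 12.1 and 13.6 CPM in the mutant, against 8.30, 5.51 and 8.92 CPM in wildtype 1, 2 and 3. The groups did not overlap, and wildtype 2 was well below the other wildtype libraries. The rise was 1.62-fold (log2 0.70, SE 0.16, edgeR adjusted p = 0.00836), and without wildtype 2 it was log2 0.52 (edgeR adjusted p = 0.0325).

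Adamts5 (ENSMUSG00000022894, chromosome 16, 85856173 to 85901828, minus strand) encodes the main aggrecanase of mouse cartilage and lies next to Adamts1 on the same strand, with 53059 bases between them. It had 31.4, 35.8 and 39.0 CPM as lowest, median and highest levels in the mutant, against 23.6, 31.5 and 29.8 CPM in wildtype 1, 2 and 3. The groups overlapped by the lowest mutant library, mutant 5, which lay just under wildtype 2. The rise of 1.26-fold passed the test narrowly (log2 0.34, SE 0.108, edgeR adjusted p = 0.039). It was not called without wildtype 1, where the log2 fold change was 0.22 (edgeR adjusted p = 0.25), nor without wildtype 3 or mutant 1, 3 or 6, nor with the trend on exon length removed, where it was 0.14 (edgeR adjusted p = 0.395).

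Adamts9 (ENSMUSG00000030022, chromosome 6, 92772699 to 92943492, minus strand), a versican-cleaving enzyme with the longest protein of the 4, had 27.1, 29.7 and 37.6 CPM in the mutant, against 20.4, 21.9 and 25.0 CPM in wildtype 1, 2 and 3. The lowest mutant library lay above the highest wildtype library. The rise was 1.39-fold (log2 0.47, SE 0.119, edgeR adjusted p = 0.0129). It lost its call in 4 of the 18 alternatives, among them without wildtype 1 (log2 0.41, edgeR adjusted p = 0.101), with the exon length trend removed (log2 0.21, edgeR adjusted p = 0.144), and with the share of Gm42418 as a covariate. Adamts9 shares 1381 exon bases, 9.18% of its exon length, with A730049H05Rik on the other strand, which stood at 0.594 CPM in the mutant and 0.401 CPM in wildtype. Adamts9 and Adamts5 have the longest exon sequence of the members, 15048 and 10791 bases.

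An exact permutation test of log2 CPM, two-sided over 84 arrangements, gave p = 0.0119 for Adamts1, Adamts4 and Adamts9, the smallest value this design allows, and p = 0.0238 for Adamts5. Within the libraries high in Gm42418, the log2 differences, mutant minus wildtype, were 0.67 for Adamts1, 0.56 for Adamts4, 0.60 for Adamts5 and 0.60 for Adamts9, and within the low libraries they were 0.42, 0.67, 0.15 and 0.32 in the same order. These values rest on 5 mutant libraries and 1 wildtype library in the high set and on 1 mutant library and 2 wildtype libraries in the low set. All 8 differences were above 0. With the share of Gm42418 as a covariate, Adamts5 (log2 0.40, edgeR adjusted p = 0.0693) and Adamts9 (log2 0.47, edgeR adjusted p = 0.0545) were no longer called, while Adamts1 (log2 0.56, edgeR adjusted p = 0.00862) and Adamts4 (log2 0.62, edgeR adjusted p = 0.0478) were.

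Among the metalloproteinases, Mmp23 fell while Mmp2 and Mmp14 did not pass the test. Mmp23 (ENSMUSG00000029061, chromosome 4, 155650655 to 155653384, minus strand) encodes a membrane-anchored metalloproteinase that lacks the hemopexin domain and is released from the cell when its propeptide is cut. It had 11.5, 13.5 and 14.9 CPM as lowest, median and highest levels in the mutant, against 29.3, 25.6 and 22.5 CPM in wildtype 1, 2 and 3. The highest mutant library lay well below the lowest wildtype library. The level was 1.93-fold lower in the mutant (log2 -0.95, SE 0.122, edgeR adjusted p = 0.000354; exact two-sided permutation p = 0.0119). The log2 difference was -1.14 within the libraries high in Gm42418 and -0.68 within the low libraries. Mmp23 stayed past the threshold in all 18 alternatives fitted, and leaving out single libraries gave log2 fold changes between -1.03 and -0.84. It was -0.83 with the exon length trend removed.

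Mmp2 (ENSMUSG00000031740, chromosome 8, 92827291 to 92853420, plus strand) encodes gelatinase A, which cuts denatured collagen and type IV collagen. Its levels in the mutant were 498, 623 and 754 CPM as lowest, median and highest, against 487, 643 and 524 CPM in wildtype 1, 2 and 3. The groups overlapped between 498 and 643 CPM, and the mutant range reached above that stretch. The fitted log2 fold change was 0.17, with a 95% interval of -0.09 to 0.42 (edgeR adjusted p = 0.353).

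Mmp14 (ENSMUSG00000000957, chromosome 14, 54431612 to 54445364, plus strand) encodes the membrane-type enzyme that activates pro-MMP2 at the cell surface in a complex with TIMP2. It had 454, 503 and 528 CPM in the mutant, against 418, 545 and 484 CPM in wildtype 1, 2 and 3, and both the highest and the lowest library were wildtype. The log2 fold change was 0.05, with a 95% interval of -0.13 to 0.24 (edgeR adjusted p = 0.713). Its sign turned without wildtype 1 (log2 -0.039) and with the exon length trend removed (log2 -0.032). The intervals bound the size of any change in these genes but do not show that the groups were alike.

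Of the inhibitors, Timp3 rose, Timp2 did not pass the test and Timp1 was lower on average without passing. Timp3 (ENSMUSG00000020044, chromosome 10, 86300372 to 86349506, plus strand) encodes the matrix-bound inhibitor, which is mutated in Sorsby fundus dystrophy, a human disease of the basement membrane under the retina. It had 325, 369.9 and 412 CPM as lowest, median and highest levels in the mutant, against 243, 272 and 276 CPM in wildtype 1, 2 and 3. Every mutant library lay above every wildtype library. The rise was 1.40-fold (log2 0.48, SE 0.0847, edgeR adjusted p = 0.00233; exact two-sided permutation p = 0.0119). The log2 difference was 0.59 within the libraries high in Gm42418 and 0.48 within the low libraries. Timp3 lies within Syn3 on the other strand and shares 1733 exon bases with it, 21.3% of its exon length. Syn3, a synapsin gene, stood at 1.57 CPM in the mutant and 1.70 CPM in wildtype and did not pass the test (log2 -0.12, edgeR adjusted p = 0.823).

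Timp2 (ENSMUSG00000017466, chromosome 11, 118301069 to 118355740, minus strand), whose product both inhibits MMPs and helps MMP14 to activate pro-MMP2, had the most counts of the 10 genes. Its levels were 656, 716 and 774 CPM in the mutant, against 624, 714 and 662 CPM in wildtype 1, 2 and 3. The groups overlapped between 656 and 714 CPM. The log2 fold change was 0.11, with a 95% interval of -0.07 to 0.28 (edgeR adjusted p = 0.38).

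Timp1 (ENSMUSG00000001131, chromosome X, 20870166 to 20874735, plus strand), which encodes a secreted inhibitor of most soluble MMPs, had 10.6, 14.04 and 15.9 CPM as lowest, median and highest levels in the mutant, against 20.4, 14.02 and 17.5 CPM in wildtype 1, 2 and 3. Wildtype 2 lay inside the mutant range and the other wildtype libraries above it. The log2 fold change was -0.37, with a 95% interval of -0.71 to -0.03 before adjustment, and did not pass the test (SE 0.16, edgeR adjusted p = 0.115; exact two-sided permutation p = 0.0952). Within the Gm42418 sets the log2 difference was -0.55 in the high libraries and -0.54 in the low libraries, both further from 0 than the pooled value. With the share of Gm42418 as a covariate the log2 fold change was also -0.55 (edgeR adjusted p = 0.053), and limma-voom with quality weights called the gene lower (log2 -0.38, adjusted p = 0.0275). With the exon length trend removed it was -0.10 (edgeR adjusted p = 0.722). Timp1 has the shortest exon sequence of the 10 genes, 888 bases, and Mmp23 the next shortest, 2340 bases.

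**Figure D2:**
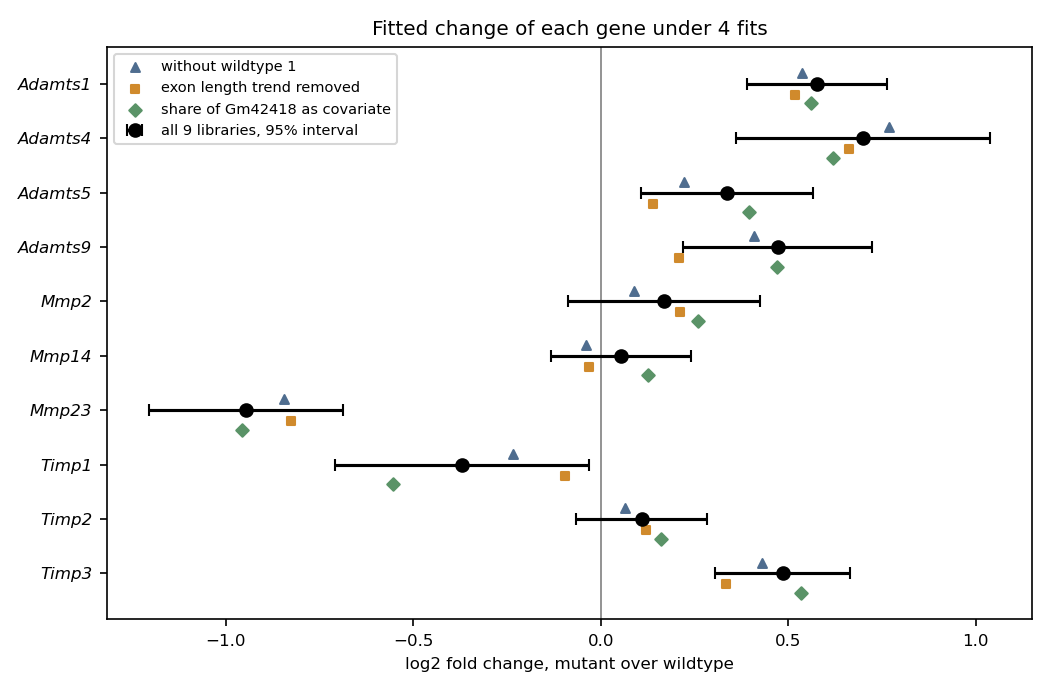
Fitted log2 fold change of mutant over wildtype for each gene (horizontal axis), with all 9 libraries and a 95% interval in black, without wildtype 1 as triangles, with the exon length trend removed as squares and with the share of Gm42418 as a covariate as diamonds. Mmp23 lies between -0.96 and -0.83 in these 4 fits and Timp3 between 0.33 and 0.53, while Adamts5 ranges from 0.14 to 0.40.

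Upstream sequence is shown for 2 ADAMTS genes that rose and for the member that fell, since these moved in opposite directions. Each stretch is the 250 bases before a RefSeq start site in GRCm38.p6, on the strand of the gene and 5′ to 3′. Capitals mark matches, on either strand, to a small set of core motifs. The GC box was searched as GGGCGG. The TATA element was searched as TATAAA. The site of the AP-1 factors was searched as TGANTCA. The remaining motif was the CCAAT box, searched by the letters of its name. In Adamts1 a TATA element and a GC box stand next to each other without overlap.
Adamts1, chr16:85803114-85803363, minus strand: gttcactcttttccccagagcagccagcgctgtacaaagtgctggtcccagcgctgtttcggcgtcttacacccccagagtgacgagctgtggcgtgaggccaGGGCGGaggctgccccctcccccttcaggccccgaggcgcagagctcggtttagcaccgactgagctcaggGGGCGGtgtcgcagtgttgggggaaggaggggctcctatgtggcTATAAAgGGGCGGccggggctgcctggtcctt
Adamts9, chr6:92943535-92943784, minus strand: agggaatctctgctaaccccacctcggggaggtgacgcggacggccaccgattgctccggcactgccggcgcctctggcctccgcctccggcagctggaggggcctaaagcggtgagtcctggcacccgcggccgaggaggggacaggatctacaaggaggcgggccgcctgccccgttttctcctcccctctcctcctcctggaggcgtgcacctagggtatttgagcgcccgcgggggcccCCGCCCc
Mmp23, chr4:155653385-155653634, minus strand: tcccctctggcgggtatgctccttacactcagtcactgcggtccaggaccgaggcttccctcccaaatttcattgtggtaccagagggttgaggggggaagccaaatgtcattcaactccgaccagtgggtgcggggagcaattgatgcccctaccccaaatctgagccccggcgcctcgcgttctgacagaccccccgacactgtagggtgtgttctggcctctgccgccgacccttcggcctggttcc
Adamts1 had a TATA box that began 32 bases before the start site and 3 GC boxes, the nearest of them 25 bases before it. Adamts9 had 1 GC box, 7 bases before the start site, and Mmp23 matched none of the 4 motifs in either of its annotated windows. RefSeq promoters were found for 7 of the 10 genes, and Adamts4, Adamts5 and Mmp2 had no entry. Of the 7 genes, 6 held a GC box, against 32.7% of 32851 promoters, 1 held a TATA box, against 12.4%, 3 held a CCAAT box, against 33.8%, and 0 held the AP-1 letters, against 6.75%. A match is a description of the letters and does not show that a factor binds there.

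Levels between genes were compared in TPM, which divides counts by exon length and scales each library to the same total. The order by the wildtype mean was Timp2, Mmp2, Mmp14, Timp3, Timp1, Adamts1, Mmp23, Adamts5, Adamts4 and Adamts9. Timp2 stood at 594 ± 45.1 TPM in the mutant (SD, n = 6) and 547 ± 79.2 TPM in wildtype (SD, n = 3), and Mmp2 at 593 ± 92.0 TPM in the mutant and 525 ± 113 TPM in wildtype. Their ranges over libraries overlapped in both groups, so they do not differ beyond their spread. Mmp14 followed at 271 ± 18.4 TPM in the mutant and 259.7 ± 53.6 TPM in wildtype, and Timp3 at 146 ± 14.7 TPM and 104 ± 15.4 TPM.

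At the other end, Adamts5, Adamts4 and Adamts9 were low in TPM. Adamts5 had 10.7 ± 0.637 TPM in the mutant and 8.43 ± 1.87 TPM in wildtype, Adamts4 had 8.23 ± 0.478 TPM and 4.99 ± 1.15 TPM, and Adamts9 had 6.67 ± 0.939 TPM and 4.77 ± 0.808 TPM, each with n = 6 mutant and n = 3 wildtype libraries. The ranges of Adamts4 and Adamts9 overlapped in both groups. In the mutant, Adamts1 at 64.1 ± 5.34 TPM stood above Timp1 at 48.4 ± 6.86 TPM, whereas in wildtype Adamts1 at 42.7 ± 5.64 TPM stood below Timp1 at 61.6 ± 7.30 TPM, and the ranges of these genes did not overlap within either group. Mmp23 stood at 18.5 ± 2.31 TPM in the mutant and at 34.9 ± 2.67 TPM in wildtype, where its range overlapped that of Adamts1. Exon length was the total over all annotated transcripts, and the places of Timp2 against Mmp2, of Adamts1 against Mmp23 and of Adamts5, Adamts4 and Adamts9 among themselves changed with the length of the longest transcript.

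**Figure D3:**
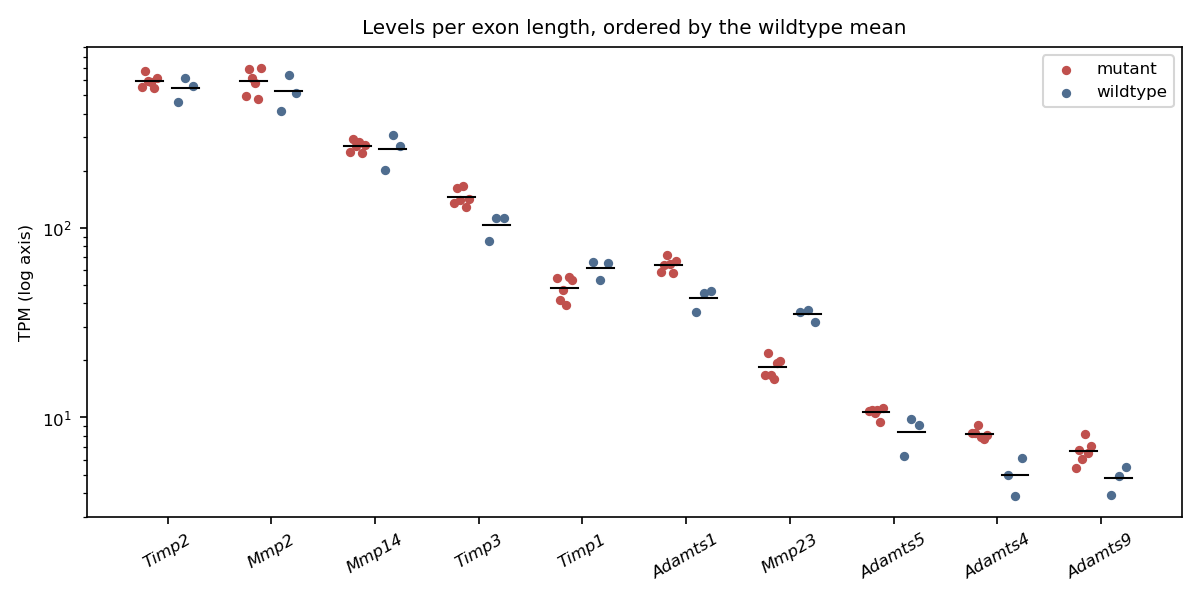
Level of each gene per exon length in TPM on a log axis, ordered by the wildtype mean, with 1 point per library (mutant left, wildtype right) and a line at the mean of each group. The members span from 547 TPM for Timp2 to 4.77 TPM for Adamts9 in wildtype, and Adamts1 and Timp1 stand in opposite order in the groups.

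Summed per length, the 4 ADAMTS genes reached 89.6 ± 6.26 TPM in the mutant and 60.8 ± 8.40 TPM in wildtype, with ranges of 81.7 to 97.5 TPM and 51.4 to 67.3 TPM that did not overlap. Most of this sum was Adamts1, at 64.1 TPM in the mutant and 42.7 TPM in wildtype. The 3 metalloproteinase genes summed to 882 ± 109 TPM in the mutant and 819 ± 166 TPM in wildtype, nearly all of it Mmp2 and Mmp14, and the ranges overlapped. The 3 inhibitor genes summed to 789 ± 51.5 TPM in the mutant and 712 ± 88.5 TPM in wildtype, again with overlapping ranges (SD, n = 6 and n = 3 for each sum).

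Ratios within a library were computed for the inhibitor and protease pairs known to act on each other. The ratio of Timp2 to Mmp2 in TPM was 1.01 ± 0.0965 in the mutant and 1.05 ± 0.0806 in wildtype, and the ratio of Timp2 to Mmp14 was 2.20 ± 0.0711 and 2.12 ± 0.142 (SD, n = 6 and n = 3). Both ratios overlapped between the groups. The ratio of Timp3 to Adamts4 was 17.8 ± 2.08 in the mutant and 21.6 ± 6.60 in wildtype, where wildtype 2 alone reached 29.2, and the ratio of Timp3 to Adamts5 was 13.7 ± 1.05 and 12.4 ± 1.08. These overlapped too. Between the inhibitors, the ratio of Timp1 to Timp3 was 0.337 ± 0.0773 in the mutant and 0.608 ± 0.151 in wildtype, and its ranges, 0.236 to 0.426 and 0.472 to 0.771, did not overlap. These genes differ much in exon length, 888 bases for Timp1 and 8144 for Timp3. With the exon length trend removed, their log2 fold changes shrank, from -0.37 to -0.10 for Timp1 and from 0.48 to 0.33 for Timp3. The Timp1 to Timp3 ratio was not computed with that trend removed. The size of most ratios changed with the length of the longest transcript. By that length, the mean Timp2 to Mmp14 ratio was 1.25 in the mutant and 1.21 in wildtype. The means were 28.0 and 34.0 for Timp3 to Adamts4, and 23.7 and 21.5 for Timp3 to Adamts5. They were 0.197 and 0.355 for Timp1 to Timp3, and 0.973 and 1.01 for Timp2 to Mmp2. No test was run on the ratios, and RNA ratios do not give the ratio of the proteins.

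**Figure D4:**
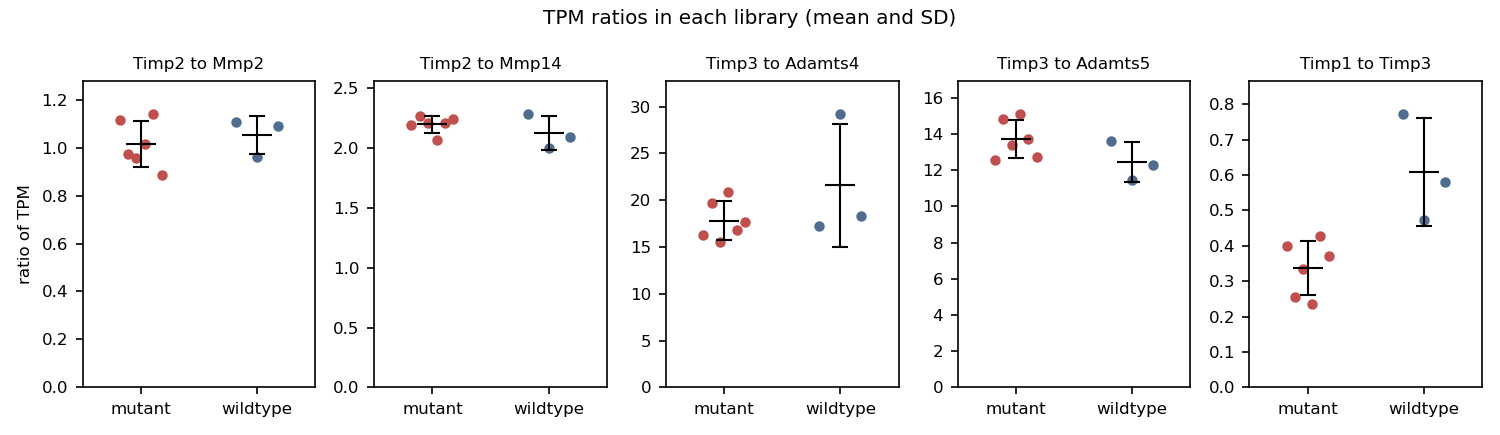
Ratio of TPM for 5 pairs of genes (vertical axes starting at 0), with 1 point per library, mutant left and wildtype right, and the mean and SD as bars. The Timp1 to Timp3 ratio is the one whose groups do not overlap, with all mutant libraries at or below 0.426 and all wildtype libraries at or above 0.472. The ratios use total exon length, and the exon length trend is not removed from them.

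Of 67 other genes for matrix proteases, their inhibitors and activators, 55 were tested, with a median log2 fold change of 0.24. Of the 55, 14 were higher in the mutant and 0 lower (edgeR, adjusted p under 0.05), against 9.7% and 9.47% of all tested genes. At an unadjusted p under 0.05, 26 were higher and 1 was lower, against 17.3% and 16.7% of all tested genes. DESeq2 called 16 higher and 1 lower, against 1923 and 1747 of the 14773 genes it tested, and limma-voom 22 and 2, against 14.9% and 14.8%. Without wildtype 1, 4 were called higher and 0 lower by edgeR, against 1.88% and 1.45% of the genes tested in that fit. The other metalloproteinases that rose were Mmp19, at 10.4 ± 0.534 CPM in the mutant and 6.32 ± 0.309 CPM in wildtype (log2 0.71, edgeR adjusted p = 0.00352), and Mmp9, which encodes gelatinase B, at 3.40 ± 1.57 CPM and 1.66 ± 0.125 CPM (log2 1.02, edgeR adjusted p = 0.0476). These were 2 of 10 tested members of that list, and Mmp9 lost its call in 6 of the 9 fits that left out a library.

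Adamts15, another versican-cleaving protease, was the 1 gene of 14 other ADAMTS proteases that passed. Across all tested genes, 9.7% were called higher and 9.47% lower, so this count is near the share over all genes. Adamts15 stood at 26.8 ± 2.29 CPM in the mutant and 16.01 ± 2.05 CPM in wildtype (log2 0.74, edgeR adjusted p = 0.0014). Of 7 ADAMTS-like genes, which lack the protease domain, 3 rose: Adamtsl3 (log2 0.96, edgeR adjusted p = 0.0075), Papln (log2 0.54, edgeR adjusted p = 0.0115) and Thsd4, also known as ADAMTSL6 (log2 0.34, edgeR adjusted p = 0.026). Each of these 3 lost its call without wildtype 1 (edgeR adjusted p = 0.0718, 0.0936 and 0.186).

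Among 15 tested inhibitors, convertases and members of the plasminogen system, 4 rose, against 9.7% of all tested genes. Lrp1, the endocytic receptor that clears ADAMTS4, ADAMTS5 and TIMP3 from the matrix, was at 426 ± 89.0 CPM in the mutant and 250.2 ± 33.05 CPM in wildtype (log2 0.77, edgeR adjusted p = 0.0035). Plat, the tissue plasminogen activator gene, rose 1.39-fold (log2 0.47, edgeR adjusted p = 0.00836), and was not called without wildtype 1 (edgeR adjusted p = 0.0791). Of 9 membrane ADAM proteases, 4 rose, among them Adam8, a protease of myeloid cells, at 14.5 ± 4.32 CPM in the mutant and 1.75 ± 0.76 CPM in wildtype (log2 3.05, edgeR adjusted p = 3.06e-05). Adam9 and Adam12 were higher by log2 0.41 and 0.67 (edgeR adjusted p = 0.00697 and 0.0111), and neither was called without wildtype 1.

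**Figure D5:**
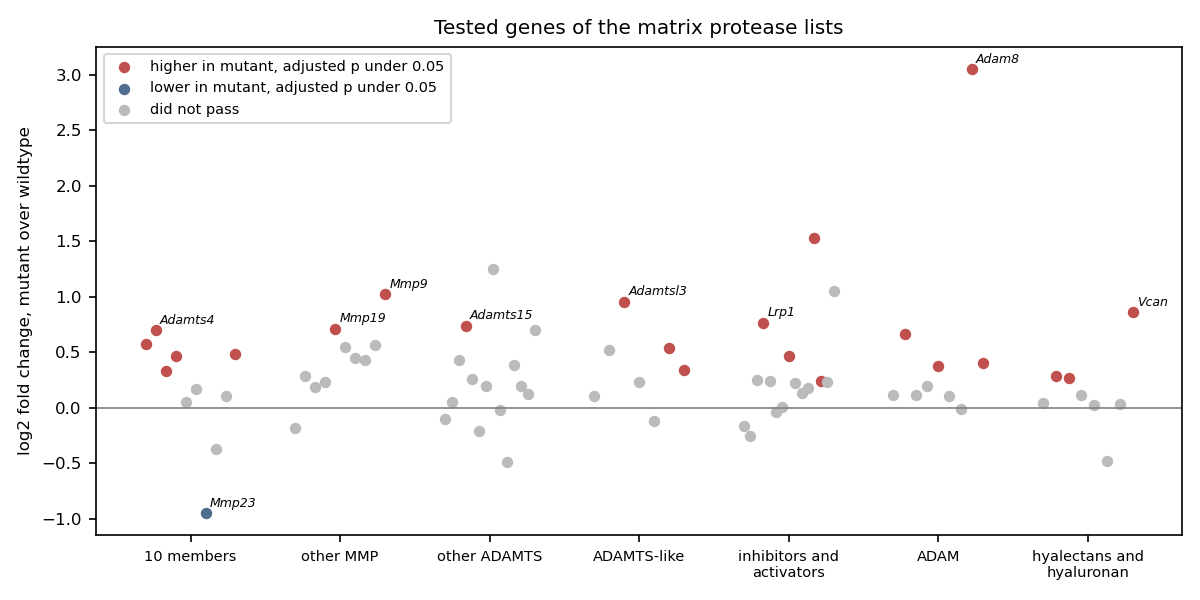
Fitted log2 fold change of mutant over wildtype (vertical axis) for each tested gene of 7 lists, with genes that were higher in red, lower in blue and not past the test in grey. Of all genes shown, Mmp23 is the 1 gene called lower.

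The substrates of the ADAMTS members were looked at in a list of 13 hyaluronan-binding proteoglycans, link proteins, hyaluronan synthases and partners, of which 8 were tested. Of these, 3 rose and 0 fell (edgeR, adjusted p under 0.05), against 9.7% and 9.47% of all tested genes. At an unadjusted edgeR p under 0.05 the counts were also 3 and 0, against 17.3% and 16.7%. They were 3 and 0 by DESeq2 as well, against 1923 and 1747 of the 14773 genes it tested. By limma-voom they were again 3 and 0, against 14.9% and 14.8% of all tested genes. Vcan, which encodes versican, was at 84.1 ± 18.7 CPM in the mutant and 46.3 ± 9.37 CPM in wildtype (log2 0.86, edgeR adjusted p = 0.0036). Cd44, the hyaluronan receptor gene, and Fbln1, whose product fibulin 1 is a cofactor of ADAMTS1, rose by log2 0.29 and 0.27 (edgeR adjusted p = 0.017 and 0.0392). Has2, a hyaluronan synthase gene, had 1.56 ± 0.757 CPM in the mutant and 2.17 ± 0.895 CPM in wildtype and did not pass the test (edgeR adjusted p = 0.415). Vcan alone of the 3 was called without wildtype 1, where 1.88% of tested genes were called higher.

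Markers of cell types that could carry these genes also differed between the groups. Of 8 blood vessel endothelium markers, 6 were higher and 0 lower (edgeR; 7 and 0 at an unadjusted p under 0.05, 6 and 0 by DESeq2), and their summed level ran from 659 to 776 CPM in the mutant, against 486 to 561 CPM in wildtype. Of 8 pericyte and smooth muscle markers, edgeR called 3 higher (Pdgfrb, Cspg4 and Abcc9) and 3 lower (Acta2, Myh11 and Cnn1). In that order, the log2 fold changes were 0.54, 0.96 and 1.24, and -0.33, -0.35 and -0.73. The 8 markers summed to 1128 to 1217 CPM in the mutant and 1256 to 1398 CPM in wildtype. Acta2 alone averaged 554 CPM in the mutant and 696 CPM in wildtype, so the sum does not follow the markers that rose. Of 8 keratocyte markers, edgeR called 5 lower (Kera, Lum, Dcn, Aldh3a1 and Aqp1) and 0 higher. The counts were 6 and 0 at an unadjusted edgeR p under 0.05, and 5 and 0 by DESeq2. Their sums overlapped, at 16390 to 27590 CPM in the mutant and 21980 to 27890 CPM in wildtype. Most of the sum was Col1a1, which averaged 13870 CPM in the mutant and 13370 CPM in wildtype and did not pass the test. Of 12 macrophage markers, 3 were higher and 0 lower (edgeR; 8 and 0 at an unadjusted p under 0.05, 6 and 0 by DESeq2), with sums of 400.2 to 561 CPM in the mutant and 292 to 308 CPM in wildtype. Of 7 red blood cell markers, 4 were higher and 0 lower (edgeR; 7 and 0 at an unadjusted p under 0.05 and by DESeq2), with sums of 1797 to 8787 CPM in the mutant and 533 to 939 CPM in wildtype. The 8 lens markers, 1 of which was lower and 0 higher (edgeR; 2 lower and 1 higher at an unadjusted p under 0.05, 1 and 0 by DESeq2), summed to 210 to 233 CPM in the mutant and 255 to 260.0 CPM in wildtype. Apart from Crybb2 and Lim2, every marker of these 6 lists that is in the table had counts in some library. Without wildtype 1, edgeR called 1 endothelium, 1 red blood cell and 3 macrophage markers higher, 1 keratocyte marker lower, and 3 pericyte and smooth muscle markers higher and 2 lower. Over all genes tested in that fit, 1.88% were higher and 1.45% lower. Of 8 corneal epithelium markers, edgeR called 1 higher and 0 lower, and of 8 drainage and iris mesenchyme markers, 2 and 0. The corneal epithelium count is near the share over all genes. Of 6 pigment markers 0 were called, with sums of 13710 to 15370 CPM in the mutant and 15440 to 16110 CPM in wildtype. At an unadjusted edgeR p under 0.05, these lists held in turn 2, 4 and 1 higher markers and 0 lower. The part of the marker differences in the levels of the 10 genes was not tested.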

How the data were processed

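The authors deposited 1 table of raw counts, unnormalized, with Ensembl genes as rows and libraries as columns. The submitters' processing notes name the build GRCm38 (mm10), HTSeq 0.6.1, STAR 2.6.1 and DESeq2 1.6.3 without saying what each did. Neither strand setting nor annotation release is stated there, so reads of overlapping exons cannot be told apart. The spans of 5 of the 10 genes overlap another gene, and 3 of them (Adamts4, Adamts9 and Timp3) share exon bases with it. Columns were matched to samples by the labels, and 0 columns were left over. Symbols, positions and exon lengths came from GENCODE M21, which held 34490 of 35275 identifiers.

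Counts were tested with edgeR 4.0.16 in R 4.3.3 (TMM factors, filterByExpr by group to drop low genes, robust quasi-likelihood fit on genotype alone), with Benjamini-Hochberg adjustment over 15825 genes at 0.05. CPM used TMM library sizes, and TPM used counts over total exon length. Permutations used log2 of CPM plus 0.5 and all 84 arrangements of the labels. No pair of the 18 within a group was close enough to be 1 library deposited again (chi-square per degree of freedom of at least 15.6). In counts simulated for mutant over wildtype with 15602 genes, the test found 66.7% of the genes changed 1.5-fold and 82.7% of those changed 2-fold, while 4.46% of its calls had not been changed. In that simulation 200 genes were changed, and it held neither the Gm42418 split nor an exon length trend. The 4.46% is therefore not the share of false calls in the real data.

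The 10 genes and all lists were chosen with earlier results of these data known. Named genes were the 10 members, up to 3 genes per protease list that passed the test, with the lowest p, the 4 hyalectan and hyaluronan genes with the lowest p, and genes overlapping a member, of which some are not reported here. Alternatives were other scalings, DESeq2 1.42.0, limma-voom (limma 3.58.1), other filters, a replicate block, an exon length offset (mgcv 1.9.3), the share of Gm42418 as a covariate, leaving out each library, longest transcripts for TPM, and, added after the data were seen, differences within the Gm42418 sets, divided at 1%.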

Additional observations from a re-analysis of the deposited data

Results flagged for a closer look

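In the 6 mutant libraries, 31 quantities (the 10 genes, the 5 ratios and 16 other named genes) were checked for a library that stands apart, by its gap to the next library over the whole range, with a limit of 0.625. Chance flags about 1 in 20 such groups, and 5 were found. The ratio of Timp2 to Mmp14 was 2.06 in mutant 4, against 2.19 to 2.27 in the other mutant libraries. Mutant 4 was also the highest for Lrp1, at 596 CPM against 348 to 430.4 CPM, for Thsd4, at 60.3 CPM against 50.1 to 52.0 CPM, and for Vcan, at 121 CPM against 72.9 to 84.2 CPM. Plat was highest in mutant 3, at 52.1 CPM against 42.7 to 46.1 CPM. None of the 10 genes themselves had a mutant library past this limit.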

How the results depend on the processing

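Over 18 alternatives, 164 of 180 fitted changes of the 10 genes kept their direction and their side of the threshold, 13 lost their call (9 of Adamts5 and 4 of Adamts9), 1 gained it and 2 turned their sign. The sign turned for Mmp14, at log2 -0.032 with exon length removed and -0.039 without wildtype 1, with a range of -0.039 to 0.16 over libraries left out. Of the members, 3 were called higher with the replicate block, with exon length removed and with the Gm42418 covariate, and 3 to 5 over libraries left out, the 3 without wildtype 1. limma-voom called 2 members lower. Of the other protease genes, limma-voom called 22 higher and 2 lower, DESeq2 called 1 lower, and over libraries left out 4 to 17 were called higher and 0 to 1 lower. Of the hyalectan and hyaluronan genes, 1 was called higher with the replicate block, with exon length removed and with the covariate, and 1 to 3 over libraries left out. The cause of these differences was not tested. Replicate numbers are shared by mutant and wildtype libraries 1 to 3, but same-numbered deviations correlated at 0.0947, 0.0258 and -0.104, and mutant 1, 2 and 3 all matched wildtype 1 best, so the numbers do not pair the samples. The replicate block lost the calls of Adamts5 (edgeR adjusted p = 0.108) and Adamts9 (log2 0.33, edgeR adjusted p = 0.0884). Mutant 4, mutant 5 and mutant 6 have no wildtype library of their number. With this block, the genotype estimate therefore rests on libraries 1 to 3 of each group. The lowest counts of the 10 genes in a library were 147 for Adamts4 and 298 for Timp1.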

Other observations

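A grouping made after the values were seen sets the ADAMTS proteases by what they cut. Of the 7 genes of the proteoglycan-cleaving clade (Adamts1, Adamts4, Adamts5, Adamts8, Adamts9, Adamts15 and Adamts20), 5 were higher in the mutant and 0 lower (edgeR, adjusted p under 0.05). Across all tested genes, 9.7% were higher and 9.47% lower by that rule. The median log2 fold change of the 7 genes was 0.58. At an unadjusted p under 0.05 the clade counts were 6 and 0, against 17.3% and 16.7% of all tested genes. They were also 6 and 0 by DESeq2, against 1923 and 1747 of the 14773 genes it tested, and by limma-voom, against 14.9% and 14.8%. Without wildtype 1 edgeR called 3 of the 7 higher (Adamts1, Adamts4 and Adamts15) and 0 lower, against 1.88% and 1.45% of all genes in that fit. The clade members that did not pass were Adamts8, at 5.51 ± 1.62 CPM in the mutant and 3.39 ± 0.664 CPM in wildtype (edgeR adjusted p = 0.0507), and Adamts20, at 1.62 ± 0.461 CPM and 2.27 ± 0.602 CPM (edgeR adjusted p = 0.272). Of 11 tested ADAMTS proteases outside the clade, which include the procollagen-processing enzymes, 0 were called in either direction by edgeR or DESeq2, with a median log2 fold change of 0.19, while 3 were higher and 0 lower at an unadjusted p under 0.05 and limma-voom called 2 higher and 1 lower. The difference between the clade and the other ADAMTS genes was not tested. Within the clade the counts of higher genes include 4 members that were chosen with their results known.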
